A study of Mus musculus with 16 samples.

Results

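The genes described here are 10 early targets of bone morphogenetic protein (BMP) signaling, namely ID1, ID2, ID3, ID4, SMAD6, SMAD7, SMAD9, BAMBI, MSX1 and MSX2. They were chosen by name from the 30854 target names of the array, and 12 probes carried 1 of these names. Mouse embryonic stem (ES) cells, which express EGFP from the tau locus, had been plated on a feeder layer of PA6, a mouse bone marrow stromal line, in serum-free N2B27 medium. PA6 had also been cultured alone. Total RNA was taken at day 7 and hybridized to Illumina MouseWG-6 v2.0 arrays. There were 7 arrays of ES/PA6 co-cultures, 2 of which had received no growth factor (-GFs), 3 FGF2 and 2 BMP4. Of PA6 mono-cultures there were 9, with 3 in each of these media. Per the labels FGF2 was given at 20 ng/ml and BMP4 at 10 ng/ml for 3 days. In the methods the BMP4 dose is lower, and another field of the labels gives 7 days with the factor. The labels speak of biological replicates without naming separate thawings or passages of the cells, so p-values measure the spread between these cultures only.

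BMP ligands bind pairs of type I and type II serine/threonine kinase receptors, which phosphorylate SMAD1, SMAD5 and SMAD9. These enter the nucleus with SMAD4 and act on target genes within hours. The ID proteins are helix-loop-helix factors without a DNA-binding region that sequester E proteins and thereby hold back lineage-specific transcription, and in mouse ES cells they are known to oppose neural differentiation. SMAD6 and SMAD7 are inhibitory SMADs, BAMBI is a pseudoreceptor without kinase activity, and all 3 damp the pathway that induces them. MSX1 and MSX2 are homeobox repressors of mesenchyme, neural crest and surface ectoderm. The comparisons ask whether these targets still differed at day 7 after BMP4, and whether co-cultures and stroma differed in that response.

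RefSeq (mouse assembly GRCm38.p6) gave the upstream sequence used here for 7 of the 10 genes, ID1, SMAD7 and BAMBI not being among them. A chromosome filter was applied to the windows of the targets but not to the background of all windows. The counts below therefore cover these 7 only. The 250 bases before the start are shown for ID3, which was the only target called with BMP4, for ID4, whose level lay on the other side of the untreated co-cultures, and for SMAD6, which differed most between co-cultures and stroma. SMAD proteins are known to bind GC-rich letters and the SMAD box, which capitals mark. The GC-rich letters searched were GGCGCC, which reads alike on both strands, as well as GGAGCC with its reverse complement, and the SMAD box was GTCT with its reverse complement. The ID3 window is chr4:136143572-136143821 (plus strand), the ID4 window is chr13:48260866-48261115 (plus strand) and the SMAD6 window is chr9:64022060-64022309 (minus strand).
ID3: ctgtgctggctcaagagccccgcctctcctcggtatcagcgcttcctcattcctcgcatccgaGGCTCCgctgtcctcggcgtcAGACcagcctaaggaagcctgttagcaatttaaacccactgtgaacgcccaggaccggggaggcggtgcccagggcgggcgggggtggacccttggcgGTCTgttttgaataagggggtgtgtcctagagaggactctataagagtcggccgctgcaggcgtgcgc
ID4: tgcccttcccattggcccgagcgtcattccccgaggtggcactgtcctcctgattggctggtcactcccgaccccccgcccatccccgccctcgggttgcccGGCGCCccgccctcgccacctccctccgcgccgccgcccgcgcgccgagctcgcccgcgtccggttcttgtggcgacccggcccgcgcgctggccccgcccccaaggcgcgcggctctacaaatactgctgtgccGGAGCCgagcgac
SMAD6: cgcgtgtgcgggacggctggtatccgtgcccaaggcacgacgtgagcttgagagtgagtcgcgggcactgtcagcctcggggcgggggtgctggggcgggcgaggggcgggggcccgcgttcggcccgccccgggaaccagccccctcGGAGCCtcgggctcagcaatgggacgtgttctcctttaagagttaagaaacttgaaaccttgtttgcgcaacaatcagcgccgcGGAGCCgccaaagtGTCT
On both strands, GGAGCC occurred in 6 of the 7 windows against 26.0% of all 32851 windows of this length. GGCGCC occurred in 3 of 7, those of ID2, ID4 and SMAD9, against 9.59% of all windows. GTCT occurred in 5 of 7 against 82.9% of all, so its presence says little. The windows shown hold 18 (ID3), 35 (ID4) and 27 (SMAD6) CG dinucleotides, where the median window held 6. GC content of the 7 windows ran from 61.6% (MSX2) to 75.6% (ID4), where the median window held 52.4%. The counts of GC-rich letters were not compared with windows of like GC content. The MSX1 window held none of these letters. A match is a description of the letters and not evidence of binding.

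All values below are log2 intensities after background correction and quantile normalization over the 16 arrays, and differences are log2 fold changes. Levels are compared between cultures for 1 probe at a time, never between genes. A probe counted as detected on an array when its deposited detection p-value was under 0.05. A gene was tested when 1 of its probes was detected on every array of at least 1 group, and the term called is used for a limma adjusted p (Benjamini-Hochberg, over all 14829 genes tested) under 0.1 together with a change of more than 1 on the log2 scale. Between 37.3% and 47.0% of probes were detected on an array. On every co-culture array 6 of 6 tested pluripotency markers were detected, and their summed intensity was 8902 or more. On PA6 arrays 0 to 2 of the 6 were detected, with a sum of at most 774. Of 7 stromal markers, 6 or 7 were detected on every array of both kinds. Periostin (POSTN) was detected on no co-culture array and on no PA6 array with BMP4. RNA of a whole culture was measured, so a change in the share of a cell type and a change of RNA per cell cannot be told apart.

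Of the 10 targets, 7 could be tested. SMAD7 and BAMBI, both feedback inhibitors, and MSX2 were detected on 0 of 16 arrays. The raw intensity of the SMAD7 probe was 112.4 to 180.7, that of BAMBI 112.1 to 224.4 and that of MSX2 107.8 to 149.4. These stood at 45.2% to 68.9%, 44.0% to 84.8% and 40.7% to 64.7% of the dimmest detected probe on the same array. The lowest detection p-values, given by the deposited table, were 0.228, 0.132 and 0.627. Each of these genes has 1 probe on the array, so the data give only a bound below the detection level for them, with or without BMP4.

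**Figure D1:**
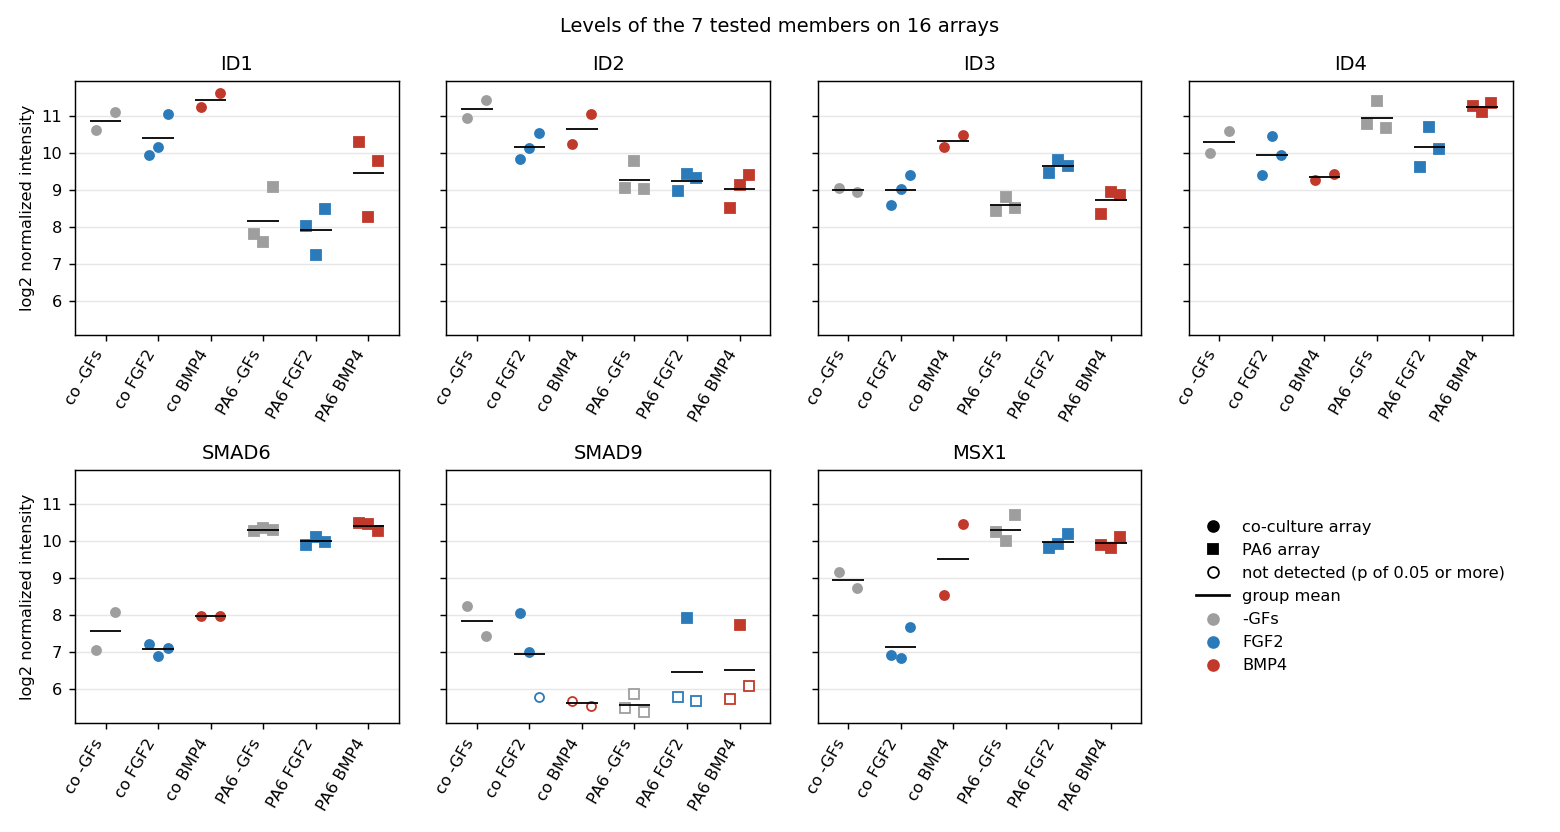
Log2 normalized intensity of the 7 tested genes (1 panel each) in the 6 groups. Each point is an array, open points were not detected, and black lines are group means. ID3 with BMP4 in co-cultures (10.14 and 10.48) lies above every other array, and SMAD6 is 9.89 or more in PA6 and 8.10 or less in co-cultures.

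In co-cultures ID3 rose 2.51-fold with BMP4 at day 7, and no other target was called. ID3 read 9.03 and 8.93 in the -GFs co-cultures, 8.57, 9.01 and 9.38 with FGF2, and 10.14 and 10.48 with BMP4. Both BMP4 arrays exceeded all other arrays, PA6 mono-cultures included. The change from -GFs was 1.33 ± 0.29 (SE, n = 2 against 2, adjusted p = 0.0755), with a 95% interval of 0.65 to 2.00. Against FGF2 the change was 1.32 ± 0.26 (n = 2 against 3, adjusted p = 0.0967). These 2 comparisons share the BMP4 arrays and are not independent. One called gene among 7 stands beside 3.75% of all genes called for BMP4 against -GFs and 1.44% for BMP4 against FGF2. At an unadjusted p under 0.05 there were 3 targets for BMP4 against -GFs (ID3 higher, ID4 and SMAD9 lower), beside 14.9% of all genes.

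The ID3 call was not stable. With 1 array left out it stayed between 1.15 and 1.50, but the adjusted p ran from 0.0552 to 0.236. The call was lost without -GFs replicate 1 or 2, FGF2 replicate 2, or BMP4 replicate 1 or 2 of the co-cultures. It was also lost with the replicate number as a block (1.33 ± 0.22, adjusted p = 0.104) and with the run of columns in the deposited table as a block (1.25 ± 0.30, adjusted p = 0.141). Within the 1 run that held both groups the difference was 1.55. Against FGF2 the change lay between 1.11 and 1.52 and the call was lost whichever of the 7 co-culture arrays was left out.

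Markers of other cells moved with BMP4 as well. The summed intensity of the 6 pluripotency markers, among them NANOG, was 8902 to 9120 in -GFs co-cultures, 46667 to 57582 with FGF2 and 17000 to 32236 with BMP4. Of these 6 genes 3 were called higher with BMP4 and 6 with FGF2, each against -GFs. Of 3 tested endothelial markers 2 were called higher with either factor. The sum over the 3 was 208.0 to 302.8 in -GFs co-cultures, 1790 to 3281 with FGF2 and 1475 to 1559 with BMP4. CDH5, KDR, TIE1 and ICAM2 were listed too but not tested, as no group detected them on every array. CDH5 was detected on 1 array each of FGF2 and BMP4 co-cultures, and of PA6 with FGF2 and with BMP4. TIE1 and ICAM2 were each detected only on 1 BMP4 co-culture array. The summed intensity of 5 surface epithelium markers, among them the keratins KRT8 and KRT18, was 1946 to 2384 in -GFs co-cultures, 1241 to 1894 with FGF2 and 18313 to 32389 with BMP4, and 2 to 3, 2 to 5 and 5 of the 5 were detected. Of the defining epithelial markers, TACSTD1 was detected on no array. The sum over 4 adipocyte markers was 1776 to 4063 in -GFs co-cultures, 2299 to 3322 with FGF2 and 2967 to 17475 with BMP4. None of these 4 was called with either factor. The part of any of these cells in the ID3 difference was not tested.

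ID1, the classic BMP target of the family, was bright in all co-cultures. It read 10.61 and 11.10 in -GFs co-cultures, 9.94, 10.15 and 11.05 with FGF2, and 11.23 and 11.62 with BMP4. The BMP4 arrays were the highest of the series and did not overlap with -GFs, but groups failed to overlap for 46.1% of all genes in this comparison. The difference of 0.56 ± 0.39 was not called (adjusted p = 0.595, 95% interval -0.36 to 1.48).

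ID2 and ID4 lay lower with BMP4 than without, and neither was called. ID4, which is linked to neural precursors, read 9.99 and 10.59 in -GFs co-cultures, 9.40, 10.44 and 9.92 with FGF2, and 9.27 and 9.42 with BMP4. The difference of -0.95 ± 0.36 did not pass (adjusted p = 0.277, 95% interval -1.79 to -0.10), although the groups did not overlap. With the column run as a block it was -1.37 ± 0.25 and was called (adjusted p = 0.0854). For ID2, at 10.92 and 11.41 without growth factors and 10.24 and 11.04 with BMP4, the groups overlapped and the difference was -0.53 ± 0.35 (adjusted p = 0.570). A dimmer probe of ID2, detected on 6 of 16 arrays, gave 0.71 ± 0.50 in the same comparison (adjusted p = 0.617), so the probes of ID2 disagree in sign and neither difference passed.

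Neural markers were also lower with BMP4. The sum over 4 tested markers, such as nestin (NES) and doublecortin (DCX), was 12933 to 17778 in -GFs co-cultures, 6452 to 7376 with FGF2 and 5832 to 6737 with BMP4, and all 4 were detected on every co-culture array. PAX6 was detected on no array and the neuronal tubulin TUBB3 on 1, a co-culture array with BMP4. Whether these cells contribute to the ID2 and ID4 levels was not tested.

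The receptor SMADs and inhibitory SMADs showed no called change with BMP4. SMAD6 read 7.07 and 8.10 in -GFs co-cultures and 7.98 and 7.99 with BMP4. The pair of -GFs arrays enclosed the BMP4 values, and the difference of 0.40 ± 0.33 had a 95% interval of -0.38 to 1.18 (adjusted p = 0.681). Without -GFs replicate 1 it was -0.12. SMAD9, a receptor-regulated SMAD that is itself a BMP target, was detected on both -GFs arrays (8.26 and 7.44), on 2 of 3 FGF2 arrays (8.06 and 7.01, with 5.79 on the array that missed it) and on neither BMP4 array (5.69 and 5.56). Against the detection level of the BMP4 arrays the -GFs level was at least 2.84-fold higher, with a fitted difference of -2.23 ± 0.66 for BMP4 that did not pass (adjusted p = 0.163). SMAD9 passed the detection filter only through the -GFs co-cultures, so this bound is not independent of the choice to test it.

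MSX1 varied widely within groups of co-cultures. It read 9.17 and 8.73 in -GFs co-cultures, 6.92, 6.85 and 7.67 with FGF2, and 8.55 and 10.47 with BMP4. The BMP4 arrays lay on either side of the -GFs arrays, and the difference of 0.56 ± 0.60 was not called (adjusted p = 0.764). It was -0.40 without BMP4 replicate 2 and 1.52 without BMP4 replicate 1. The spread between arrays of a group (pooled SD) was 0.77 for MSX1 in co-cultures, against 0.86 for SMAD9, the largest of the 7 targets, and a median of 0.27 over all genes.

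**Figure D2:**
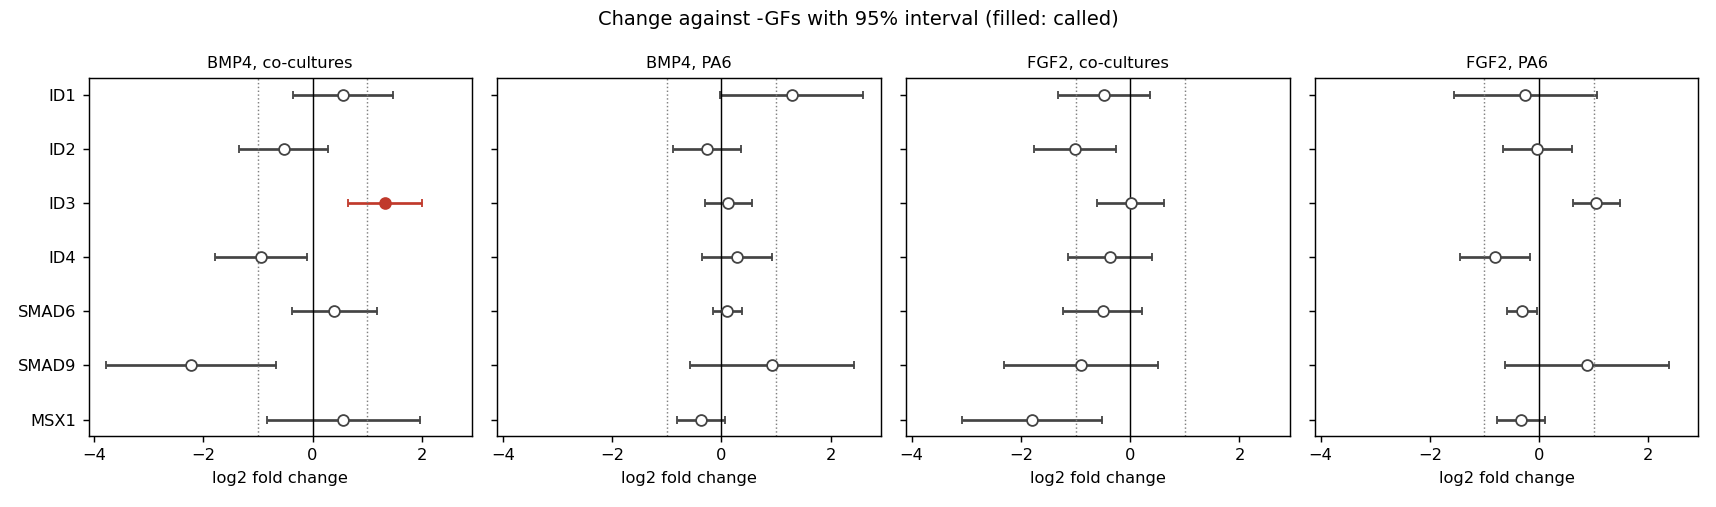
Log2 fold change against -GFs (x axis) of the 7 tested genes for BMP4 and FGF2 in co-cultures and PA6 mono-cultures, with 95% intervals. Filled red points are called and dotted lines mark a change of 1. ID3 with BMP4 in co-cultures, at 1.33, is the only called point.

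FGF2 called none of the targets in co-cultures, where 7.42% of all genes were called. At an unadjusted p under 0.05 there were 2, both lower, MSX1 and ID2, beside 22.7% of all genes. MSX1 was lower on all 3 FGF2 arrays than on either -GFs array, and the difference of -1.80 ± 0.54 narrowly missed the threshold (adjusted p = 0.105, 95% interval -3.08 to -0.52). ID2, at 9.83, 10.13 and 10.52 with FGF2, was also below both -GFs arrays (-1.01 ± 0.32, adjusted p = 0.116). Groups did not overlap for these 2 targets, as for 39.7% of all genes. Its dimmer probe gave -0.22 ± 0.45. With all 16 arrays in 1 model both genes passed (MSX1 adjusted p = 0.0137, ID2 adjusted p = 0.0626). ID3 was not called, with a difference of 0.01 ± 0.26 and a 95% interval of -0.61 to 0.62. The FGF2 and BMP4 comparisons use the same -GFs arrays.

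Set against FGF2 in place of -GFs, BMP4 co-cultures had higher values of 4 targets at an unadjusted p under 0.05, ID1, ID3, SMAD6 and MSX1, beside 7.16% of all genes that were higher at that limit. Only ID3 was called, as given above. MSX1 differed by 2.36 ± 0.54 (adjusted p = 0.124), ID1 by 1.04 ± 0.36 (adjusted p = 0.255) and SMAD6 by 0.91 ± 0.30 (adjusted p = 0.248). The groups did not overlap for any of these genes, which held for 31.4% of all genes. With 1 array left out the MSX1 difference ran from 1.41 to 3.32. It stayed uncalled in 6 of 11 alternatives run with every array and was called in the rest. The median difference over the 7 targets was 0.91, beside 0.04 over all genes tested.

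In PA6 mono-cultures BMP4 called none of the targets, and of all genes 0% were called. At an unadjusted p under 0.05 there was also no target, although 1334 of the 14829 genes passed that limit. ID1 came nearest. It read 7.79, 7.59 and 9.07 in -GFs cultures and 10.29, 8.26 and 9.77 with BMP4, a difference of 1.29 ± 0.58 (n = 3 against 3, adjusted p = 0.558, 95% interval -0.03 to 2.60). Within the same replicate number the BMP4 array was higher each time, by 2.50, 0.67 and 0.69, and the groups overlapped. The interval of the ID1 change in PA6 includes the 0.56 found in co-cultures.

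ID3 in PA6 was near equal with and without BMP4, at 8.43, 8.80 and 8.50 in -GFs cultures and 8.35, 8.94 and 8.84 with BMP4. The difference was 0.13 ± 0.19 with a 95% interval of -0.30 to 0.55, which lies below the 1.33 seen in co-cultures. SMAD6, at 10.28, 10.35 and 10.29 without growth factors and 10.50, 10.46 and 10.28 with BMP4, had the smallest spread of the targets in PA6 (pooled SD 0.09) and a 95% interval of -0.16 to 0.38. For the other 4 targets the differences with BMP4 in PA6 ran from -0.37 (MSX1) to 0.93 (SMAD9). SMAD9 was detected on 1 of 3 arrays with BMP4, 1 of 3 with FGF2 and 0 of 3 without factor, so its difference compares mostly undetected values.

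Adipocyte markers differed widely between the PA6 arrays. The sum over 4 markers, such as adiponectin (ADIPOQ) and adipsin (CFD), was 2221 to 18028 in -GFs cultures, 1765 to 2864 with FGF2 and 12903 to 119131 with BMP4, with all 4 detected on every -GFs and BMP4 array. FABP4 was detected on no array. Their part in the ID1 values was not tested.

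FGF2 in PA6 mono-cultures was accompanied by higher ID3, which did not pass the threshold. ID3 read 9.45, 9.79 and 9.64 with FGF2, above all -GFs and BMP4 arrays of the PA6 cultures. The difference from -GFs was 1.05 ± 0.19 (adjusted p = 0.147, 95% interval 0.62 to 1.47), and within the same replicate number it was 1.02, 0.99 and 1.14. Groups failed to overlap for 2 targets, ID3 and SMAD6, beside 16.7% of all genes. With the replicate number as a block the adjusted p was 0.0764. None of the 7 targets was called, beside 0.0270% of all genes. At an unadjusted p under 0.05 there were 3 (ID3 higher, ID4 and SMAD6 lower), beside 10.4% of all genes.

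ID4 went the other way from ID3 with FGF2 in PA6. It read 10.77, 11.40 and 10.66 in -GFs cultures, 9.61, 10.70 and 10.10 with FGF2, and 11.26, 11.09 and 11.33 with BMP4. The FGF2 difference was -0.81 ± 0.29 (adjusted p = 0.394). Between BMP4 and FGF2, which share no array, ID4 differed by 1.09 ± 0.29, ID1 by 1.54 ± 0.58, SMAD6 by 0.42 ± 0.12 and ID3 by -0.92 ± 0.19 in PA6. None passed, with adjusted p of 0.251, 0.445, 0.282 and 0.141, beside 0.310% of all genes called and 9.27% at an unadjusted p under 0.05. MSX1 in PA6 stayed between 9.81 and 10.70 on all 9 arrays.

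The response of ID3 differed between the kinds of culture for both factors. The BMP4 effect was larger in co-cultures than in PA6 by 1.20 ± 0.34 (interaction term over all 16 arrays, adjusted p = 0.0852, 95% interval 0.47 to 1.93). The FGF2 effect was smaller in co-cultures than in PA6 by 1.04 on the log2 scale (-1.04 ± 0.32, adjusted p = 0.0723, 95% interval -1.74 to -0.35). ID3 was the only target called in either test, beside 4.23% of all genes for BMP4 and 7.90% for FGF2. The 2 tests share the -GFs arrays.

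Both calls were fragile while their direction held. Across 16 fits that each left out 1 array, the BMP4 difference ran from 1.02 to 1.37 and stayed called without FGF2 replicate 1 or 3 of the co-cultures or BMP4 replicate 2 of PA6, and was lost in the other 13. The FGF2 difference ran from -1.24 to -0.83. Its call was lost in 8 of 16 fits, those without -GFs replicate 1 or 2 or FGF2 replicate 1 or 2 of the co-cultures, or without -GFs replicate 1 or 3 or FGF2 replicate 2 or 3 of PA6. For SMAD9 the BMP4 effect differed by -3.16 ± 1.05 (adjusted p = 0.148) and for ID4 by -1.23 ± 0.48 (adjusted p = 0.231), so neither was called. SMAD9 was called with the replicate block (adjusted p = 0.0998), the column run block (0.0660), median scaling (0.0304) and without background correction (0.0914). ID4 was called with the column run block (adjusted p = 0.0617). These calls were absent in 5 of 9 alternatives for SMAD9 and in 9 of 10 for ID4. SMAD9 was detected on no BMP4 co-culture array and no -GFs PA6 array, so its difference includes values at background. For ID1 the interval of the difference, -2.50 to 1.05, allows a larger effect in either culture.

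**Figure D3:**
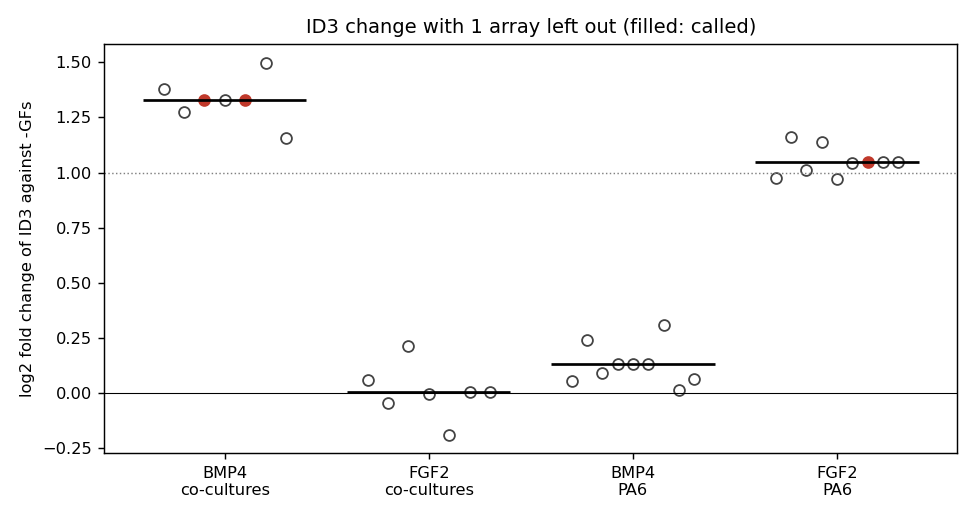
Log2 fold change of ID3 against -GFs (y axis) with 1 array left out (1 point per fit) for BMP4 and FGF2 in both kinds of culture. Filled red points are called, black lines are the values with all arrays and the dotted line marks a change of 1. BMP4 in co-cultures stays between 1.15 and 1.50 and is called in 2 of 7 fits.

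SMAD6 and ID1 differed between the kinds of culture in every medium. Without growth factors 5 of 7 were called, beside 44.1% of all genes, so a call in this comparison is common. Among them is SMAD9, which passed the detection filter only through the -GFs co-cultures. With FGF2 3 of 7 were called beside 46.4%, and with BMP4 5 of 7 beside 42.4%.

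SMAD6, the inhibitory SMAD, was higher in PA6 in all 3 media. Its PA6 arrays ran from 9.89 to 10.50 and its co-culture arrays from 6.89 to 8.10. The difference of co-culture from PA6 was -2.72 ± 0.23 in -GFs medium, -2.92 ± 0.21 with FGF2 and -2.43 ± 0.23 with BMP4, or 6.60-fold, 7.55-fold and 5.38-fold higher in PA6. The adjusted p was at most 3.65e-05 in any fit with 1 array left out with BMP4, and at most 2.65e-06 without growth factors. MSX1 was also higher in PA6, by 2.58-fold in -GFs cultures (-1.37 ± 0.43, adjusted p = 0.0128) and 7.14-fold with FGF2 (-2.84 ± 0.38). With BMP4 the difference was -0.43 ± 0.43 and was not called, and it was 0.53 without BMP4 replicate 1 of the co-cultures and -1.39, a called value, without replicate 2.

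ID1 was higher in co-cultures in all 3 media. The lowest co-culture array read 9.94, and of the 9 PA6 arrays 1 BMP4 array exceeded it, at 10.29. The difference was 2.71 ± 0.58 in -GFs medium, 2.48 ± 0.52 with FGF2 and 1.98 ± 0.58 with BMP4, and it stayed called with any 1 array left out. ID2 was higher by 1.90 ± 0.33 in -GFs co-cultures and by 1.63 ± 0.33 with BMP4, and by 0.92 ± 0.30 with FGF2, which was under the fold limit. The dimmer ID2 probe gave 0.09 ± 0.39, 1.45 ± 0.39 and 0.32 ± 0.34 in the same order, so without growth factors the call rests on the brighter probe.

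ID3 and ID4 differed between the kinds of culture with BMP4, in opposite directions. With BMP4 ID3 was higher in co-cultures by 1.60 ± 0.24 (adjusted p = 6.16e-05) and ID4 lower by 1.88 on the log2 scale (-1.88 ± 0.34). Without growth factors the ID3 difference was 0.40 ± 0.24 and that of ID4 -0.65 ± 0.34, and neither was called. With FGF2 ID3 was lower in co-cultures (-0.64 ± 0.21, adjusted p = 0.0170), short of the fold limit. SMAD9 was higher in -GFs co-cultures than in PA6, where it was detected on 0 of 3 arrays, by at least 2.24-fold (fitted difference 2.26 ± 0.74, adjusted p = 0.0168), a call lost without -GFs replicate 1 of the co-cultures. Since SMAD9 passed the detection filter only through the -GFs co-cultures, this call is not independent of the choice to test it. Pluripotent, neural and stromal markers all differ between these cultures by design, and the cell type that holds each transcript was not resolved.

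**Figure D4:**
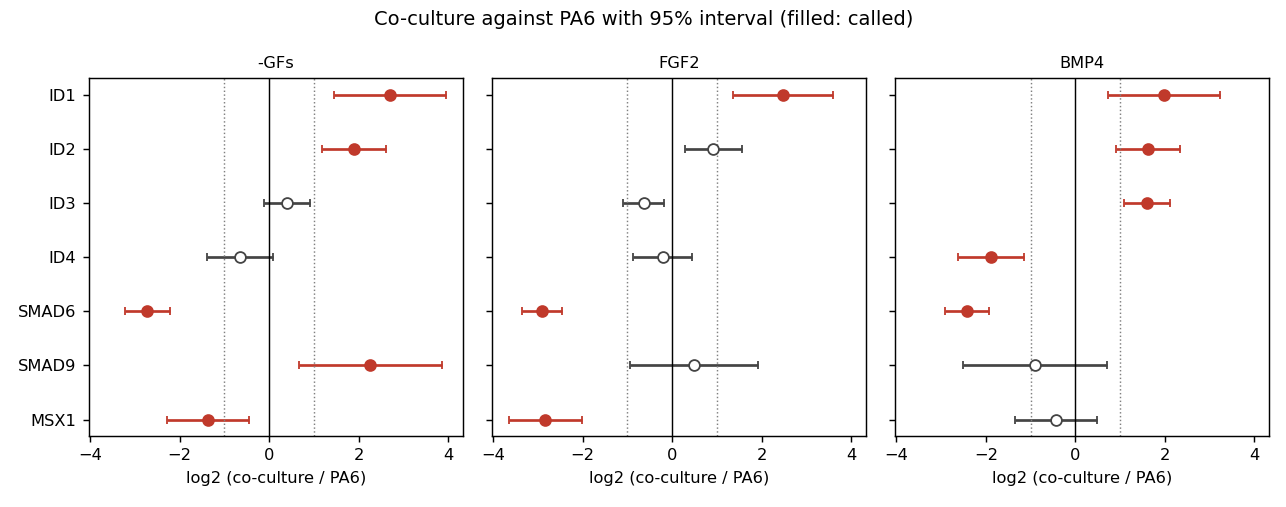
Log2 ratio of co-culture to PA6 mono-culture (x axis) with 95% intervals for the 7 tested genes in -GFs, FGF2 and BMP4 medium. Filled red points are called and dotted lines mark a difference of 1. SMAD6 lies between -2.92 and -2.43 and ID1 between 1.98 and 2.71.

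Ordered by group mean, ID3 ran from BMP4 co-cultures (10.31 ± 0.24, SD) and FGF2-treated PA6 (9.63 ± 0.17) down to PA6 with BMP4 (8.71 ± 0.32) and without factor (8.58 ± 0.20). Both leading groups stood clear of the next below, and the other 4 groups overlapped from one to the next. For SMAD6 the 3 PA6 groups led. Of the co-culture groups -GFs overlapped with both others, while BMP4 and FGF2 did not overlap. For ID1 the 3 co-culture groups led in the order BMP4, -GFs and FGF2. In SMAD9 and MSX1 most neighboring groups overlapped.

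The rest of the pathway was described with a list of 52 further BMP genes, of which 49 were on the array and 37 could be tested. With BMP4 in co-cultures 5 rose and 1 fell, beside 3.75% of all genes called. DLX3, a homeobox gene of surface ectoderm, rose by 1.45 ± 0.17 (adjusted p = 0.0132), GATA3 by 1.58 ± 0.28 (adjusted p = 0.0410) and the T-box gene TBX3 by 2.38 ± 0.55 (adjusted p = 0.0895). SOSTDC1, a secreted antagonist of BMP and WNT, rose by 3.07 ± 0.51 (adjusted p = 0.0363), and the ligand BMP7 by 1.24 ± 0.29 (adjusted p = 0.0943). The type I receptor BMPR1B fell by 1.35 (adjusted p = 0.0821). DLX3 and GATA3 are genes of surface epithelium too, whose markers were high on the same arrays, and the source of the transcripts was not tested.

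With FGF2 in co-cultures 3 of the 37 rose and 2 fell, beside 7.42% of all genes called. TBX3 rose by 3.40 ± 0.50, the ligand gene BMP4 by 1.60 ± 0.41 and SMURF1, a ubiquitin ligase for receptor SMADs, by 1.41 ± 0.35. BMPR1B fell by 1.62 and the antagonist follistatin (FST) by 1.11. BMP4 against FGF2 called SOSTDC1, GATA3 and DLX3, all higher with BMP4. SMAD1, SMAD5 and SMAD4 gave 2 tested genes, neither of them called in any comparison.

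In PA6 mono-cultures neither factor called any of the 37 against -GFs. The ligand gene BMP4 was lower with BMP4 than with FGF2 by 1.08 on the log2 scale (-1.08 ± 0.19, adjusted p = 0.0947), at 11.66 ± 0.10 (SD, n = 3) against 12.75 ± 0.22, with 11.87 ± 0.34 in -GFs cultures. The BMP4 effect was larger in co-cultures than in PA6 for BMP4 itself (1.94 ± 0.47), BMP7 (1.36 ± 0.31), SOSTDC1 (3.23 ± 0.67) and TBX3 (2.35 ± 0.55), and for none of the 37 was it called smaller. In PA6 BMP7 was detected on no array and SOSTDC1 on 1 -GFs array only, so their PA6 change was measured at background. For the FGF2 effect between cultures 2 of the 37 were called higher and 2 lower, beside 7.90% of all genes called.

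Between the kinds of culture calls were common for pathway genes, as for all genes. Of 10 tested antagonists 4 were lower in co-cultures than in PA6 in -GFs medium, 7 with FGF2 and 6 with BMP4, while 2, 1 and 2 were higher. Of all genes 21.8%, 22.9% and 20.3% were called lower in the same comparisons. BMPER, a secreted regulator that binds BMPs, read 9.99 ± 0.45 (SD, n = 2) in -GFs co-cultures and 12.88 ± 0.36 (n = 3) in PA6. Over the whole list 8 of 37 were higher and 10 lower in co-cultures without growth factors, 7 and 14 with FGF2, and 9 and 11 with BMP4, beside 44.1%, 46.4% and 42.4% of all genes called in either direction.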

How the data were processed

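RNA of 16 cultures had been hybridized to 1 array each. The deposited table holds bead intensities that the authors exported from GenomeStudio 2011.01 without normalization between arrays. It also holds a deposited detection p-value per probe and array. Intensities were background corrected from the detection p-values, quantile normalized and converted to log2 with 16 added first (limma 3.58.1 in R 4.3.3). Bright probes are compressed on such arrays, and precision is limited by the number of arrays. Probes needed detection (p under 0.05) throughout 1 or more groups, and the probe with the largest mean stood for its gene, which left 14829 genes. Linear models were fitted to the 7 co-culture and 9 PA6 arrays separately, and to all 16 for comparisons across cultures. Moderated p-values were adjusted over all genes. The fits were tested on simulated data. A gene undetected on a whole group is given as a bound against the detection level of those arrays. The 10 genes and all lists were chosen with earlier results of these data known. Every member is named. Pathway genes are named where called for a factor within 1 kind of culture or for the BMP4 effect between cultures. Other pathway calls are given as counts. TCF3 was left out, since the symbol names more than 1 gene, and 1 neural marker of the lists is not reported here. Alternatives covered scaling, background, filters, thresholds, blocks and single arrays.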

Additional observations from a re-analysis of the deposited data

Results flagged for a closer look

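The effect of BMP4 on ID3 differed between the kinds of culture by 1.20 on the log2 scale (limma interaction term, adjusted p = 0.0852). It was higher with BMP4 on 2 of 2 co-culture arrays and overlapped with -GFs in PA6. The effect of FGF2 on ID3 differed in the other direction, by -1.04 (adjusted p = 0.0723), with all 3 FGF2 arrays of PA6 above the -GFs arrays and overlap in co-cultures. Both are noted because the difference itself passed the test. The first was lost in 13 and the second in 8 of 16 fits that left out 1 array, with ranges of 1.02 to 1.37 and -1.24 to -0.83.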

How the results depend on the processing

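The 5 and 5 targets called between the kinds of culture in -GFs and BMP4 medium, and the 0 called in PA6 for BMP4 against -GFs (0 at an unadjusted p under 0.05) and against FGF2 (4 at that limit), kept their counts within 1.5 times in all alternatives run with every array. For BMP4 against -GFs in co-cultures the count of 1 became 2 with median scaling and with a trend in the variance prior (SMAD9 added), and 0 with probes detected on all arrays, with no filter, and at an adjusted p under 0.05. With a replicate block the 1 called gene was SMAD9 and with a column run block (the 3 runs of columns in the table) ID4, while ID3 had an adjusted p of 0.104 and 0.141. For FGF2 against -GFs in co-cultures the count of 0 became 2 (ID2 and MSX1) with median scaling, the trended prior and all 16 arrays in 1 fit, and 1 (ID2) with the replicate block. For BMP4 against FGF2 in co-cultures the count of 1 became 4 with median scaling, 2 without background correction, with the trended prior, with all 16 arrays and with the column run block, and 0 with detection on all arrays, no filter, every probe, an adjusted p under 0.05 and the replicate block. For FGF2 in PA6 the count of 0 became 1 (ID3) with detection on all arrays, the replicate block and the column run block. Co-culture against PA6 with FGF2 gave 5 in place of 3 with no minimum fold change. The count of 1 for the BMP4 effect between cultures became 2 without background correction and with the replicate block, 3 with the column run block, and 0 with detection on all arrays, no filter and an adjusted p under 0.05, and with median scaling the 1 gene was SMAD9. The count of 1 for the FGF2 effect became 3 with the replicate block and 0 with median scaling, without background correction, with no filter and at an adjusted p under 0.05. With median scaling the median difference over all genes reached 0.29 for BMP4 against FGF2 in co-cultures, where it was 0.04 after quantile normalization.

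Differences that were not called changed sign as follows. ID3 with FGF2 in co-cultures was -0.10 with median scaling and -0.19 with the replicate block. With median scaling ID3 with BMP4 in PA6 was -0.015, SMAD6 with BMP4 in PA6 was -0.061, and ID2 in the BMP4 effect between cultures was 0.019. ID1 in the FGF2 effect between cultures was 0.058 with the column run block. The cause was not tested.

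With 1 array left out, the number called ran from 0 to 2 for BMP4 and for FGF2 against -GFs in co-cultures, from 0 to 1 for BMP4 against FGF2 in co-cultures, for FGF2 in PA6 and for the BMP4 effect between cultures, from 0 to 2 for the FGF2 effect between cultures, and from 3 to 5 for co-culture against PA6 with FGF2. Uncalled differences that turned sign ran from -0.12 to 0.92 (SMAD6) and -0.40 to 1.52 (MSX1) for BMP4 in co-cultures, and from -0.19 to 0.21 (ID3) and -1.03 to 0.012 (SMAD6) for FGF2 there. In PA6 they ran from -0.53 to 0.21 (ID1) and -0.16 to 0.21 (ID2) for FGF2, and from -0.42 to 0.013 (ID2), -0.55 to 0.79 (SMAD9) and -0.12 to 0.072 (MSX1) for BMP4 against FGF2. Between cultures they ran from -0.48 to 0.067 (ID4) and -0.064 to 1.22 (SMAD9) with FGF2, and -1.39 to 0.53 (MSX1) with BMP4. For the BMP4 effect between cultures they ran from -0.66 to 0.14 (ID2), -0.23 to 0.81 (SMAD6) and -0.024 to 1.89 (MSX1), and for the FGF2 effect from -0.69 to 0.054 (ID1) and -0.71 to 0.32 (SMAD6).

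Deviations from the group mean correlated between same-numbered arrays at -0.20 to 0.28 in co-cultures and 0.07 to 0.20 in PA6. For other pairs the correlations were -0.28 to 0.25 in co-cultures and -0.14 to -0.012 in PA6. Replicate numbers thus grouped the PA6 arrays without overlap, while in co-cultures the ranges overlapped. The main fits used no block, and with a replicate block ID3 was called for FGF2 against -GFs in PA6 (limma adjusted p = 0.0764). By column run, which in PA6 is the same grouping, 5 pairs of co-culture arrays in the same run correlated at 0.098 to 0.28, with 4 of them over 0.1, and the other 11 pairs at -0.28 to 0.098. FGF2 replicate 3 stands alone in its block in co-cultures. Dim probes such as SMAD9 are limited by signal over background.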

Other observations

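After subtraction of the mean of each kind of culture, the genes whose levels over the 16 arrays followed ID3 most closely were CASP6, H2-T10 and INHBA, with Pearson correlations of 0.90, 0.90 and 0.87. For ID1 they were PSMB5, NDUFA12 and CD151 (0.88, 0.87 and 0.86), and for SMAD6 they were CPZ, NPR3 and LETMD1 (0.87, 0.86 and 0.85). The arrays share their groups, and the highest of 14829 correlations are selected, so these are descriptions.

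Among the targets themselves, correlations computed in the same way over 16 arrays were 0.59 for ID2 and MSX1, 0.57 for SMAD6 and MSX1, -0.55 for ID3 and ID4, and -0.03 for ID1 and ID3.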
